A study of Schizosaccharomyces pombe with 6 samples.

Results

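Narrow arm peaks were the peaks less than 1000 bp wide that lay wholly on a chromosome arm, at least 100 kb from a chromosome end and at least 50 kb from the midpoint of the central centromeric domain (*cnt*), in any of 3 ChIP peak lists of fission yeast. They numbered 320 of the 2635 peaks in the lists. The untagged list held 118 of its 961 peaks, the WT list 7 of 59 and the *SUMO-KallR* list 195 of 1615. The peaks were chosen by their measured width, so width and everything that goes with it in the same list, height included, is given as a description without a test.

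The lists come from calibrated ChIP-seq with an anti-GFP antibody in *S. pombe* grown exponentially in rich medium (YES), with budding yeast Scc1-Pk cells added to each culture as the calibrator. The untagged strain has no CFP-Cnp1, the WT strain has CFP-Cnp1 and wild-type SUMO, and the *SUMO-KallR* strain has CFP-Cnp1 and a SUMO whose lysines were all changed to arginine, so that chains on SUMO cannot form. Each strain had 1 ChIP library and 1 input library, 6 in all, so no difference between strains has a replicate check and none was tested. The antibody has no tagged target in the untagged strain, and its list is the background measured in the same way as the other lists.

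Cnp1 is the fission yeast CENP-A, a variant of histone H3 that marks the centromere and on which the kinetochore is built. On the arms it is not the usual histone, and a ChIP there also recovers chromatin that sticks to the beads or the antibody, often from open or highly transcribed genes. Much of the sequence between fission yeast coding genes is annotated as non-coding RNA genes, which include antisense and intergenic transcripts, and long terminal repeats (LTRs) are the remains of Tf retrotransposons that favoured gene promoters.

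The sequences at 7 summits show the kinds of sequence found at the narrow peaks. They are read from the top strand of the reference ASM294v3, 5′ to 3′. At *map4*, *Tf2-10* and *ght8*-*ght1* the capitals span the untagged and *SUMO-KallR* summits, and at *Tf2-8* the WT and *SUMO-KallR* summits. At SPBTRNAGLU.08 they mark the tRNA gene, and at both SPNCRNA genes the bases around the summit. *map4* (chrII:2437710-2437859) is the highest narrow peak shared by the untagged and *SUMO-KallR* lists, *Tf2-10* (chrII:1965591-1965740) a shared retrotransposon peak, *Tf2-8* (chrI:5198056-5198205) the highest narrow WT peak and SPBTRNAGLU.08 (chrII:4107599-4107750) a tRNA gene at the summit in both dense lists, the untagged and the *SUMO-KallR* list. SPNCRNA.1058 (chrI:5200888-5201037) is the highest narrow *SUMO-KallR* peak without a partner, SPNCRNA.3598 (chrI:3573548-3573697) lies in the longest untagged gap, and the stretch between *ght8* and *ght1* (chrIII:230191-230340) holds the pair with the nearest summits among those above a *SUMO-KallR* height of 10.
map4: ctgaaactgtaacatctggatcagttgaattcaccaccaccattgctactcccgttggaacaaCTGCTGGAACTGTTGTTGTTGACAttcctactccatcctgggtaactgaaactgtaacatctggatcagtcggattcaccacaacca
Tf2-10: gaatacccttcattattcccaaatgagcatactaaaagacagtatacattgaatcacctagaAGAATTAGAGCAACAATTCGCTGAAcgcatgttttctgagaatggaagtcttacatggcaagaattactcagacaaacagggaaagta
Tf2-8: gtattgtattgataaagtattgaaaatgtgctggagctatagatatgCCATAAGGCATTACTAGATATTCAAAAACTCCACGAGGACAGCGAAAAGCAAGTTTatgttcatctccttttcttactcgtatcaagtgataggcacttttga
SPBTRNAGLU.08: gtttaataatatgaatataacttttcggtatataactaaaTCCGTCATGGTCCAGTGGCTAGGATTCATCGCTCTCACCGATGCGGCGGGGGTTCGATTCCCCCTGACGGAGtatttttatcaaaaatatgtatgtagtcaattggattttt
SPNCRNA.1058: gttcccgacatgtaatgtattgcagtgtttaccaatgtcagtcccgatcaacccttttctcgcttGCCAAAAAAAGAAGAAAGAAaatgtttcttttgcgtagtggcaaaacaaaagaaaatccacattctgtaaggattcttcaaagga
SPNCRNA.3598: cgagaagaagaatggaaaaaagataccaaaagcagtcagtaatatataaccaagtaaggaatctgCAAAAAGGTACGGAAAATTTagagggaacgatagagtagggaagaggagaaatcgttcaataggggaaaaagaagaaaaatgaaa
ght8-ght1: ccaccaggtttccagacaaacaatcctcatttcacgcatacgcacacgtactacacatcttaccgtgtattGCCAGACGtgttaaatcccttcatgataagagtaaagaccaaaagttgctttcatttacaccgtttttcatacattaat
The *map4* window holds a direct repeat of 25 bp with a period of 108 bp, present in 3 copies within the gene. The *Tf2-10* window occurs 13 times in the genome and the *Tf2-8* window 3 times, whereas each of the other windows occurs once. Their GC content runs from 35.3% to 45.3%, highest at *map4*.

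Narrow peaks made up 14.7% of the 803 untagged arm peaks and 13.7% of the 1428 *SUMO-KallR* arm peaks, with 95% exact binomial intervals of 12.3 to 17.3% and 11.9 to 15.5%. All 7 WT arm peaks were narrow. Intervals on shares cover counting error only. The other peaks, called wide here, were at least 1000 bp, and together with the narrow ones they covered 96.0% of the arm sequence in the untagged list and 93.3% in the *SUMO-KallR* list. The narrow peaks themselves covered 65.3 kb in the untagged list, 2.75 kb in the WT list and 111 kb in the *SUMO-KallR* list.

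Chromosome I held 35 narrow untagged peaks, chromosome II 52 and chromosome III 31, which is 6.63, 12.3 and 14.4 per Mb of arm. The *SUMO-KallR* list had 89, 75 and 31 on the same chromosomes, or 16.9, 17.7 and 14.4 per Mb. The *SUMO-KallR* density was the higher number on chromosomes I and II, and the lists had the same count on chromosome III. Of the WT peaks, 6 lay on chromosome I and 1 on chromosome III. Of 112 windows of 100 kb, 45 had no narrow untagged peak and 28 no narrow *SUMO-KallR* peak, and the fullest held 6 and 7.

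Width ranged from 299 to 960 bp (median 520) in the untagged list, from 307 to 551 bp (median 330) in WT and from 309 to 993 bp (median 514) in *SUMO-KallR*. The median width of wide arm peaks was 11226 bp in the untagged list and 6182 bp in *SUMO-KallR*. Just inside the limit, untagged peaks of 960, 946 and 943 bp had heights of 4.6, 3.2 and 6.5. Just outside it, peaks of 1000, 1002 and 1005 bp had heights of 4.2, 13.9 and 8.4. In *SUMO-KallR*, peaks of 993, 986 and 985 bp had heights of 11.7, 3.6 and 10.3, and those of 1007, 1008 and 1014 bp had 11.9, 6.9 and 5.3. Median height was 6.9 at 800 to 1000 bp and 10.3 at 1000 to 2000 bp in the untagged list. In *SUMO-KallR* it was 9.5 and 11.3. Whether height breaks at the limit was not tested.

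Height is the highest −log10(*p*-value) in a peak against its own input, read from the deposited score. It depends on the depth of the library, which the lists do not give, so heights were ranked within a list. The narrow untagged peaks had a median height of 4.95 (lowest 1.9, highest 56.7), and wide ones of 18.7. For *SUMO-KallR* the medians were 5.1 (lowest 2.0, highest 34.3) and 16.7. Of the narrow peaks, 108 of 118 and 169 of 195 lay below the 5th percentile of the wide peaks of their list, 9.82 and 9.7. A few stood far higher, 4 untagged and 5 *SUMO-KallR* peaks above the median of the wide peaks.

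**Figure D1:**
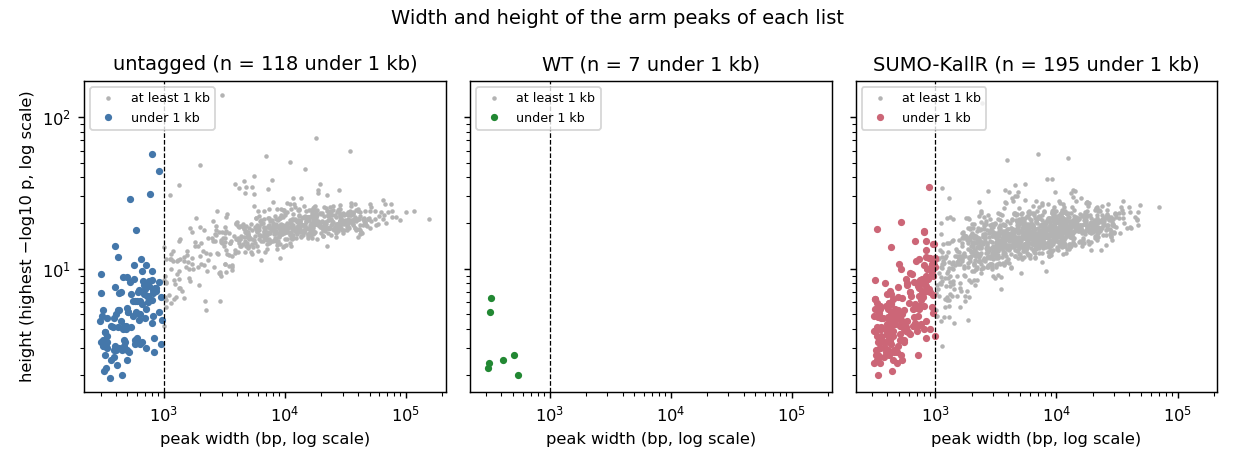
Width (x, bp, log scale) against height (y, highest −log10 *p*, log scale) of each arm peak in the untagged, WT and *SUMO-KallR* lists, with narrow peaks in colour, wide peaks in grey and the 1 kb limit dashed. Median height rises across the width range in both dense lists, from 3.35 below 400 bp to 19.5 at 5 kb or more in the untagged list and from 3.95 to 18.2 in *SUMO-KallR*, and WT has no arm peak to the right of the limit.

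Narrow untagged peaks of height 14.2 or more lay in coding genes or a retrotransposon, and the rest of the 10 highest in a UTR or between coding genes. *mal1*, which encodes a maltase, held the highest (height 56.7, rank 4 of all untagged arm peaks, summit at II 155030) and a second 306 bp before it (31.1, rank 24). The agglutination gene *map4* held a peak of 44.2, rank 9. The retrotransposon *Tf2-10* had one of 28.6, and SPBPJ4664.02, annotated as a glycoprotein, had peaks of 18.1 and 14.2. The remaining members of the 10 highest were SPNCRNA.3598 (11.9), *amt1*, an ammonium transporter gene (11.6, in its UTR), and the stretches between *plb1* and *ptl3* and between *ade4* and *tif223* (10.5 each).

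Some of these positions are in repeated sequence. At *Tf2-10* 3.25% of the 150-base sequences that start in the peak occur once in the genome, and at SPBPJ4664.02 the shares were 68.8% and 45.4%, so reads there could have been placed in more than 1 copy. Both *mal1* peaks and *map4* were fully unique at that length. In all, 110 of 118 untagged, 5 of 7 WT and 192 of 195 *SUMO-KallR* narrow peaks were fully unique.

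In *SUMO-KallR* the highest narrow peak was again at *map4* (34.3, rank 9) and the next at *Tf2-10* (20.2, rank 247). They were followed by *gsf2*, a flocculin gene (18.3), *spd1*, an inhibitor of ribonucleotide reductase (17.7), *wss1*, a metalloprotease gene whose budding yeast counterpart acts on SUMOylated proteins (17.4), and *mic10*, a subunit of the complex that shapes mitochondrial cristae (15.3). Next came the stretch between the hexose transporter genes *ght8* and *ght1* (15.1), SPNCRNA.142 and SPNCRNA.623 between *erv46* and *mpc2* (14.6), the small nucleolar RNA *snoR69b* (14.5) and *mtl3* (13.9). All but *map4*, *Tf2-10* and the *ght8*-*ght1* stretch overlapped a wide untagged peak, as did 94.8% of all *SUMO-KallR* arm peaks. At *gsf2* that peak had a height of 139.2, the highest of the untagged arm peaks, with its summit 684 bp away, and the narrow *gsf2* peak was 37.5% unique. At the others the untagged summit lay between 4873 bp (*wss1*) and 34602 bp (*spd1*) away, so its height says nothing of the untagged level at the narrow summit.

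The 7 narrow WT peaks were low, from 2.0 to 6.4 with a median of 2.5. Each lay under a wide peak of both other lists, which covered 96.0% (untagged) and 93.3% (*SUMO-KallR*) of the arm sequence with narrow peaks included. The highest was at *Tf2-8* (6.4), where the nearest *SUMO-KallR* summit lay 55 bp away with a height of 38.8 and the untagged summit of its peak 536 bp away with 50.4. The next, between *tca17* and *ppk3*, covered the valine tRNA gene SPATRNAVAL.04 (5.2), 16 bp from a *SUMO-KallR* summit of 76.1 and 1326 bp from an untagged summit of 23.5. The other 5 were in the coding sequence of *ubr11* (2.7), *rgf1* (2.5) and *set3* (2.2), in *Tf2-3* (2.4) and in the UTR of *aim29* (2.0). No untagged summit lay within 200 bp of any WT summit (0 to 41.0%), and a *SUMO-KallR* summit did for 3 of the 7 (9.90 to 81.6%). For comparison, 10.4% of all *SUMO-KallR* arm peaks had an untagged summit so near, within the first interval. Of all untagged arm peaks 18.4% had a *SUMO-KallR* summit so near, within the second. With 7 peaks these counts do not place WT nearer to either list. The *Tf2-3* and *Tf2-8* peaks had no unique 150-base sequence, and identical sequence was present in 6 and 3 of the 13 Tf2 elements, so neither can be placed in 1 element.

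The summits of the narrow peaks in both dense lists lay mainly in non-coding RNA genes. Of the untagged summits 66 of 118 (55.9%, interval 46.5 to 65.1%) were in a non-coding RNA gene outside coding genes and other features, 23 in no annotated feature, 13 in a coding exon and 13 in a UTR. Of the *SUMO-KallR* summits 103 of 195 (52.8%, 45.6 to 60.0%) were in a non-coding RNA gene, 40 in a coding exon, 26 in no feature and 19 in a UTR. Wide summits differed under the same rule, with 6.86% and 3.81% in non-coding RNA genes and 69.9% and 83.5% in coding exons. The rule leaves out a non-coding RNA gene that overlaps a coding exon or UTR at the summit. With such overlap allowed, the untagged shares were 66.1% of narrow and 43.8% of wide summits. For *SUMO-KallR* they were 66.7% and 51.0%, a smaller contrast in both lists. The arm sequence as a whole was 11.2% non-coding RNA genes and 58.5% coding exons.

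The gaps in which the narrow peaks lie are themselves rich in non-coding RNA genes. Sequence under no wide peak was 48.9% non-coding RNA genes and 7.65% coding exons in the untagged list, within the intervals of the narrow summits for the first class and for the second (5.998 to 18.1%). In *SUMO-KallR* it was 41.7% and 8.52%, both below the intervals of the summits, 45.6 to 60.0% and 15.1 to 26.9%. Sequence in no feature made up 30.0% of the *SUMO-KallR* gaps and held 13.3% of the summits (8.90 to 18.9%). Bases of a gap lie side by side and are not independent, and the comparison was not tested. The gap sequence also includes gaps under 500 bp, 409 of 690 untagged and 714 of 1235 *SUMO-KallR* gaps. None of these held a narrow peak, so the shares do not describe only places where a narrow peak could lie. The same limit applies to each later comparison with sequence under no wide peak.

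**Figure D2:**
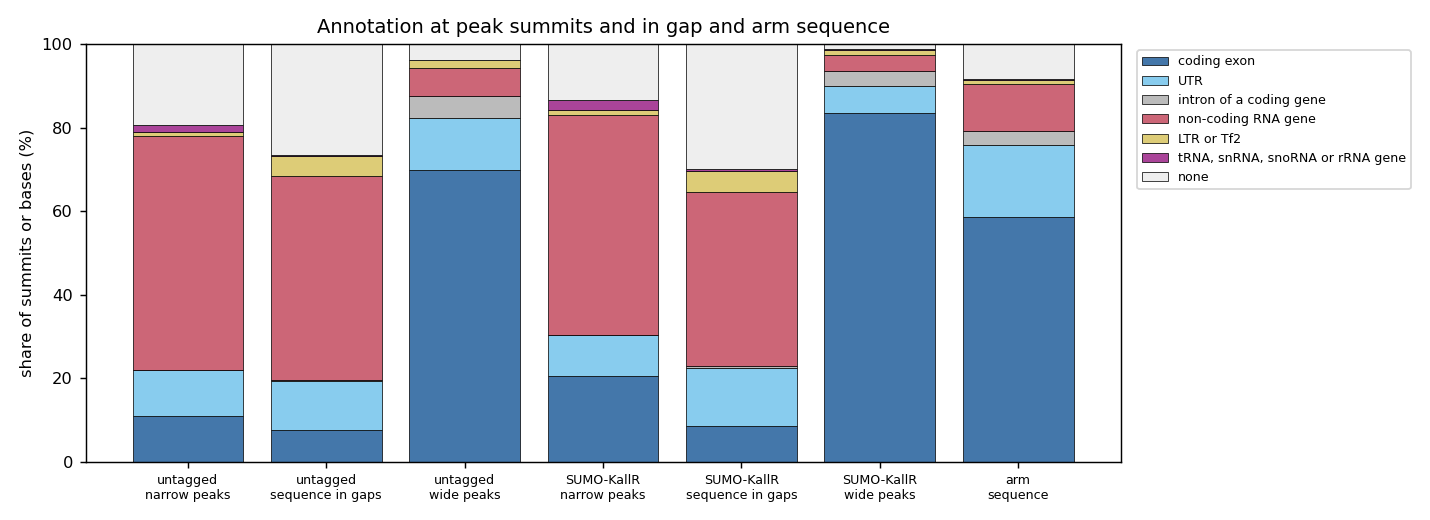
Share (y, %) of summits of narrow and wide peaks, or of bases in gaps between wide peaks and in the whole arms, in each annotation class, for the untagged and *SUMO-KallR* lists. Non-coding RNA genes outside coding genes and other features hold 55.9% and 52.8% of narrow summits and 48.9% and 41.7% of gap bases. Coding exons hold 69.9% and 83.5% of wide summits, also where a non-coding RNA gene overlaps them.

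Among summits outside coding genes and other features, 66 of 89 untagged (74.2%, 63.8 to 82.9%) and 103 of 129 *SUMO-KallR* (79.8%, 71.9 to 86.4%) were in non-coding RNA genes. Of wide summits of this kind, 47 of 73 (64.4%) and 47 of 63 (74.6%) were, both within those intervals. Such sequence under no wide peak was 64.7% in these genes in the untagged list, within the interval. In *SUMO-KallR* it was 58.1%, below the interval. Of such arm sequence, 57.1% is in these genes, rising to 70.3% in intergenic stretches longer than 2000 bp. The narrow peaks sat in long stretches. The median intergenic stretch at their summits was 2670 bp in the untagged list (91 summits between coding genes) and 2461 bp in *SUMO-KallR* (135), while the median arm base between genes lay in a stretch of 1136 bp. Stretches over 2000 bp held 69.2% and 67.4% of these summits and 24.6% of intergenic bases. The nearer coding gene was a median of 773 and 728 bp away.

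Most of these intergenic summits lay between divergent or tandem genes. In the untagged list 51 of 91 were between divergent genes, 37 between tandem and 3 between convergent genes, and in *SUMO-KallR* the counts were 81, 53 and 1 of 135. The intergenic sequence under no wide peak was 51.4% divergent, 45.1% tandem and 3.49% convergent for the untagged list and 52.9%, 43.8% and 3.28% for *SUMO-KallR*.

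Coding summits had the highest median heights of the classes with more than 3 peaks, 7.3 (13 untagged) and 8.0 (40 *SUMO-KallR*), against 4.45 and 4.7 in non-coding RNA genes and 4.6 and 4.0 where no feature was annotated. The 40 coding summits of *SUMO-KallR* lay in short genes, with a median coding length of 691.5 bp against 1488 bp for wide summits and 1144.5 bp for all arm coding genes. Of the 40, 15 were in genes with less than 500 bp of coding sequence (37.5%, 22.7 to 54.2%). Such genes hold 4.804% of arm coding bases and 26.97% of those under no wide *SUMO-KallR* peak, which is within the interval. In the untagged list 1 of 13 was in such a gene.

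Few coding genes were touched by narrow peaks. Of 4871 arm coding genes, 36 (0.739%) were touched by a narrow untagged peak, 84 (1.72%) by a *SUMO-KallR* peak and 6 by a WT peak. No narrow peak of any list touched the 126 ribosomal protein genes, the 11 histone genes or the 25 *wtf* genes, which are meiotic drivers and their relatives. At the shares of all coding genes, few or none of the genes in groups of these sizes would be touched. Of 44 kinetochore genes, *dad5*, of the DASH complex that couples kinetochores to microtubules, was touched in both dense lists, with summits 3 bp apart and heights of 2.9 in the untagged and 8.5 in the *SUMO-KallR* list. Of 158 genes listed for meiotic expression 8 were touched in the untagged list (5.06%) and 5 in *SUMO-KallR* (3.16%), and *mug115*, *mug153*, *mug155* and *mug163* were touched in both.

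The untagged peaks with their summit in this group were at *mug163* (9.6), *mug116* (8.1), *mug115* (4.7), *meu10* (4.7), *mug153* (4.1), *mug124* (4.1) and *mug155* (2.3). In *SUMO-KallR* they were at *mug163* (6.3), *mug155* (5.4), *mug153* (4.2) and *mug115* (2.5). The flocculin gene *gsf2* had narrow peaks of 6.8 and 5.4 in the untagged list and of 18.3, 8.1 and 8.0 in *SUMO-KallR*, where the peak of 18.3 lay under the wide untagged peak of 139.2. The only transporter gene touched among 28 was *amt1*.

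Genes of RNA polymerase III and small RNAs held a few summits. SPBTRNAGLU.08, a glutamate tRNA gene, was at the summit in both dense lists (7.2 untagged, 4.1 *SUMO-KallR*), 20 bp apart, and SPATRNALYS.03, a lysine tRNA gene, in *SUMO-KallR* (5.3). Of 114 arm tRNA genes 6 were touched in *SUMO-KallR* and 1 in each of the other lists. Summits in 5S ribosomal RNA genes were at SPRRNA.54 in the untagged list (5.2) and at SPRRNA.13 in *SUMO-KallR* (7.1), which also had one at the U5 small nuclear RNA gene *snu5* (4.0). The last *SUMO-KallR* summit in an LTR or Tf2 element lay in an LTR between *gcn3* and *rik1* (2.9). An LTR lay within 500 bp of 14 of 118 untagged (11.9%, 6.64 to 19.1%) and 26 of 195 *SUMO-KallR* narrow peaks (13.3%, 8.90 to 18.9%). The same held for 9.90% and 11.1% of bases under no wide peak, both within those intervals, and for 2.07% of the arm.

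A gap is the stretch between neighbouring wide peaks of a list. Peaks of a list do not overlap, so a narrow peak of a dense list has to lie between wide peaks, and all of these gaps were within the arms. The gaps that held a narrow peak were the longer ones. Of 690 untagged gaps, 100 held a narrow peak (83 held 1, 16 held 2 and 1 held 3), with a median length of 1896.5 bp against 335 bp for the others. Of 1235 *SUMO-KallR* gaps, 161 did (132, 24 and 5), with medians of 1747 and 346 bp. Size limits which gaps can hold one: no narrow peak was under 299 bp and no gap under 151 bp, and the shortest gap that held one was 778 bp in the untagged list and 647 bp in *SUMO-KallR*.

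Long gaps were not all filled. Of untagged gaps of at least 1000 bp, 91 of 163 held a narrow peak (55.8%, 47.9 to 63.6%), and 146 of 251 did in *SUMO-KallR* (58.2%, 51.8 to 64.3%). The share was 38.2% at 1000 to 1500 bp, 51.2% at 1500 to 2000 bp, 68.4% at 2000 to 3000 bp and 81.5% from 3000 bp in the untagged list. For *SUMO-KallR* the shares were 44.0%, 63.9%, 70.97% and 67.9%, the last from 28 gaps. Of the 20 longest gaps of each list, 17 and 15 held a narrow peak.

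**Figure D3:**
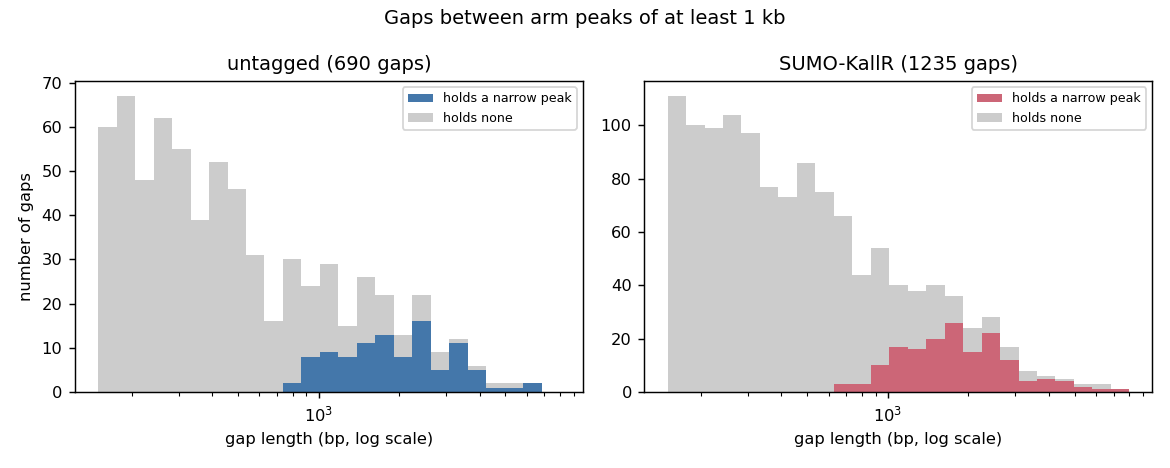
Number of gaps (y) by gap length (x, bp, log scale) between wide arm peaks of the untagged and *SUMO-KallR* lists, stacked by whether the gap held a narrow peak. Gaps with a narrow peak start at 778 and 647 bp and fill 55.8% and 58.2% of those of at least 1000 bp.

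The distances to the neighbouring peaks on both sides were also measured. The nearer peak of the list was a median of 320.5 bp away in the untagged list and 276 bp in *SUMO-KallR*, and the farther one 721.5 and 659 bp. Another peak lay less than 500 bp away for 90 of 118 and 156 of 195. If peaks of a list less than 500 bp apart are joined before the width limit is applied, 28 narrow untagged, 7 WT and 39 *SUMO-KallR* peaks are left. A narrow peak took up a median of 25.8% and 28.6% of its gap.

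The longest untagged gap with a narrow peak (6822 bp) held SPNCRNA.3598 (11.9), between *csx1* and SPAC17A2.10C, and a peak in SPAC17A2.10C (7.3). Others of the longest held SPNCRNA.777 between *pcs2* and *hsr1* (5.2, gap 6096 bp), *mug115* (4.7, 5534 bp) and the stretch between *adg1* and SPAC2H10.04 (7.6, 4651 bp). In *SUMO-KallR* the longest (7520 bp) held 2 peaks over SPNCRNA.1606 (3.6 and 2.6), between *zfs1* and SPBPB7E8.01. A gap of 6049 bp held SPNCRNA.4754 (6.6) and SPNCRNA.1367 (3.9), and one of 5611 bp held *mug115* (2.5). The *mug115* gene thus lay in a long gap of both lists, and its narrow peaks in the 2 lists did not overlap.

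GC content of the narrow peaks was below that of the arms in the dense lists and not in WT. The median was 34.6% (33.5 to 35.3%) in the untagged list and 34.2% (33.6 to 35.0%) in *SUMO-KallR*, against 36.3% and 36.5% for wide peaks and 36.2% for the arms. The 7 WT peaks had a median of 38.3% (33.3 to 45.3%), an interval that holds the value of the arms. Sequence under no peak in the dense lists had 34.1% and 32.2%. Set against the rest of its own gap, a narrow peak was richer in GC in 62 of 118 untagged cases (52.5%, 43.1 to 61.8%) and in 122 of 195 *SUMO-KallR* cases (62.6%, 55.4 to 69.4%). Over all narrow peaks, richer or poorer, the median difference was 0.40 percentage points in the untagged list and 1.38 in *SUMO-KallR*. The 200 bases at the summit had 34.5% and 35.5%, and those of wide peaks 38% and 40%.

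**Figure D4:**
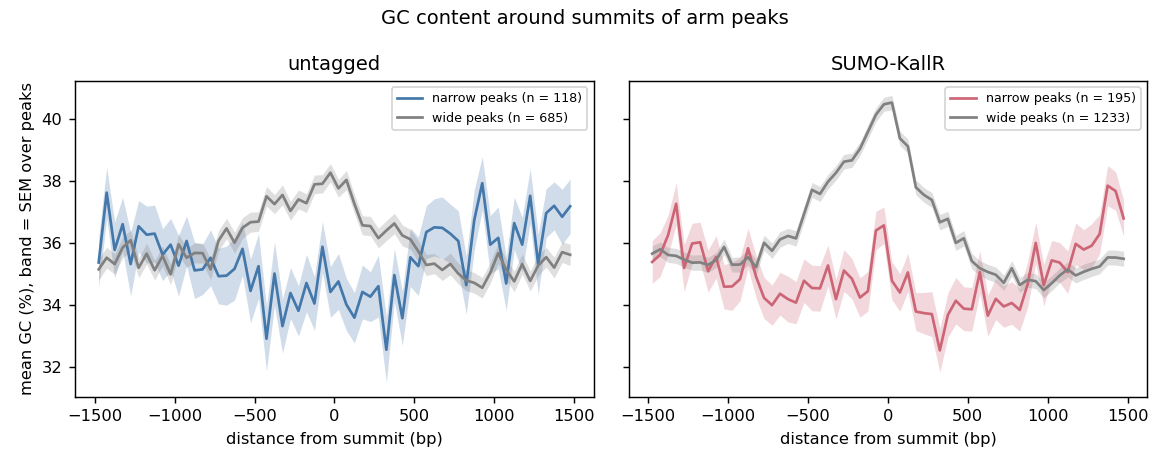
Mean GC content (y, %, in bins of 50 bp) by distance from the summit (x, bp) for narrow peaks (colour) and wide peaks (grey) of the untagged and *SUMO-KallR* lists, with bands of 1 SEM over peaks. Wide peaks rise to 38.0% and 40.1% within 100 bp of the summit, and narrow ones stay at 34.8% and 35.5%.

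Narrow peaks of one dense list were compared with all peaks of the other, counting an overlap of at least 1 bp. A *SUMO-KallR* peak overlapped 81 of the 118 narrow untagged peaks (68.6%), and 95.3% of all untagged arm peaks. An untagged peak overlapped 176 of the 195 narrow *SUMO-KallR* peaks (90.3%), and 98.6% of all *SUMO-KallR* arm peaks. Of the wide peaks 684 of 685 wide untagged and 1232 of 1233 *SUMO-KallR* ones overlapped. *SUMO-KallR* peaks covered 26.5% of the arm sequence under no wide untagged peak, and untagged peaks covered 57.3% of that under no wide *SUMO-KallR* peak. None of the narrow peaks of the dense lists overlapped a WT peak. Of all arm peaks, 6 of 803 untagged (0.75%) and 5 of 1428 *SUMO-KallR* peaks (0.35%) did, so almost no overlap was possible.

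The partners differed in width. Of the narrow untagged peaks, 37 had no *SUMO-KallR* partner, 49 only narrow ones and 32 a wide one, and 17 lay wholly inside a wide *SUMO-KallR* peak. Of the narrow *SUMO-KallR* peaks, 19 had none, 50 only narrow ones and 126 a wide one, and 98 lay wholly inside a wide untagged peak. Of all arm peaks, 87.3% of untagged and 94.8% of *SUMO-KallR* ones overlapped a wide peak of the other list. Among the 40 *SUMO-KallR* coding summits 35 belonged to a narrow peak with a wide untagged partner and 5 to one with a narrow partner. Among the 103 in non-coding RNA genes the partner was wide for 56, narrow for 31 and absent for 16. Median heights of untagged peaks with none, narrow and wide partners were 3.4, 5.3 and 6.05, and of *SUMO-KallR* peaks 4.8, 5.0 and 5.15.

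The highest untagged peaks that no peak of another list overlapped were both SPBPJ4664.02 peaks and SPNCRNA.3598. Others among the 10 highest were SPNCRNA.7424 (6.9), the stretch between *nup60* and *trs130* (6.6), *adh1AS*, the antisense RNA of the alcohol dehydrogenase gene *adh1* (6.1), SPNCRNA.6153 (6.1), the stretch between *mre11*, a DNA repair nuclease gene, and *fep1*, an iron-responsive repressor gene (5.3), and SPCC1235.17 (5.2). In *SUMO-KallR* all of the 10 highest were in non-coding RNA genes, from SPNCRNA.1058 (7.7) to SPNCRNA.1133 and SPNCRNA.1400 (4.8 each). SPNCRNA.2175, also between *mre11* and *fep1* (5.9), and SPNCRNA.383 beside *Tf2-10* (5.9) were among them, with SPNCRNA.1643 (5.9), SPNCRNA.831 (5.8), SPNCRNA.964 (5.7), SPNCRNA.291 (5.6) and SPNCRNA.968 (5.4).

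Narrow peaks of the 2 dense lists overlapped in 50 pairs, and in 34 of these the summits were within 200 bp of each other. The median summit distance was 121.5 bp. Across the 34 pairs the heights had a Spearman coefficient of 0.23, a description over sites from 1 library each. *map4* (44.2 untagged, 34.3 *SUMO-KallR*) and *Tf2-10* (28.6, 20.2) were the highest in both lists. Between *ght8* and *ght1* the untagged peak was 4.5 and the *SUMO-KallR* peak 15.1, with summits 7 bp apart.

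Other pairs lay at *gsf2* (5.4 untagged, 8.0 *SUMO-KallR*), at SPNCRNA.1460 between *clg1* and *scr1* (9.2, 8.0) and between SPAC57A7.05 and *pabp*, a poly(A)-binding protein gene (7.8, 8.0). The untagged peak was the higher number at *glt1*, the glutamate synthase gene (8.8, 5.1), at SPNCRNA.1124 between *knh3* and *spb70* (8.1, 3.3), between *erg10*, a sterol synthesis gene, and *odr1* (7.2, 3.6), and between *plb1* and *ptl3* (10.5, 5.7). These pairs were named for their height in the untagged list, so the direction partly follows from that choice. At SPNCRNA.6762 the heights were 6.5 and 8.5, at SPNCRNA.385 6.1 and 6.8, and at SPNCRNA.1501 between the phosphofructokinase gene *pfk1* and *sad1* 6.6 and 6.8. The pairs at these SPNCRNA genes were named for their height in the *SUMO-KallR* list, and the lists have no common height scale.

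**Figure D5:**
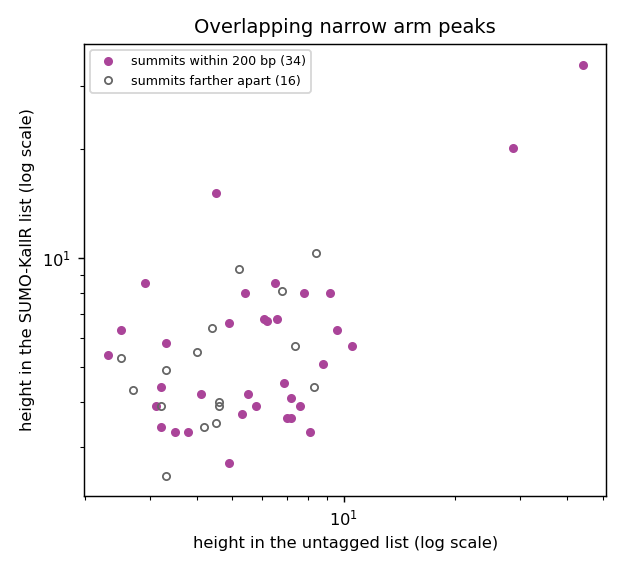
Height in the untagged list (x, log scale) against height in the *SUMO-KallR* list (y, log scale) for the 50 pairs of overlapping narrow arm peaks, filled where summits lie within 200 bp (34) and open where they lie farther apart (16). *map4* and *Tf2-10* stand apart at the upper right, and the other pairs lie at or below 10.5 in the untagged and 15.1 in the *SUMO-KallR* list. Heights of the lists are not on a common scale.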

How the data were processed

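ChIP peak lists of 3 strains, 1 library each, were analysed, each called by the authors against its own input. After adapter trimming (Cutadapt), the authors aligned reads to fission yeast (ASM294v2) and to the budding yeast calibrator (SacCer3) using Bowtie2, then used Samtools to drop unmapped, duplicate, rDNA and mitochondrial reads. MACS3 served to scale ChIP and input tracks, apply the spike-in factor and call peaks per library (*bdgpeakcall*). A later, stricter removal of background is named in the labels. For the tool versions, the cutoff and that step, details were not given in the sources used here. Each deposited score was read, by MACS convention, as 10 times the highest −log10(*p*-value) and divided by 10 (height), though no header states the factor. The deposited positions (start, end, summit offset) give widths and summits. Heights have no interval, because the number of reads behind a peak is not recorded.

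Positions were used with the sequence and annotation of ASM294v3, whose chromosome lengths match those used to define the arms. Each base took the first class that applied: tRNA gene, small nuclear, nucleolar or ribosomal RNA gene, LTR or Tf2, coding exon, UTR, intron, non-coding RNA gene, none. Overlaps needed 1 bp. Uniqueness counts 150-base sequences that occur once on either strand. Shares have exact (Clopper-Pearson) 95% intervals, and medians have order-statistic intervals. The functions were tested on simulated peaks and ran in Python 3.11.15 (matplotlib 3.10.9, SciPy 1.17.1, pandas 2.3.3 and NumPy 2.4.6).

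Narrow peaks were selected on their width, and the lists of genes, the alternatives and the peaks to name were chosen with earlier results of these data known. Named peaks were all WT peaks and, for each dense list, the 10 highest, those in the 5 longest-gap positions, the 10 highest without a partner, the 10 highest with a narrow summit of the other list within 200 bp, and up to 4 per gene class. A peak named by this rule is not reported here. Alternatives changed the width limit, the lowest width and height, the joining of near peaks, the extent of the arms and the definitions of overlap, gap, GC window and non-coding RNA class.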

Additional observations from a re-analysis of the deposited data

How the results depend on the processing

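Under the alternatives 66 of 108 values stayed within 1.5 times the count or within the interval of the main value, and 42 did not. No setting changed the deposited positions, and 1 library per strain left no replicate to omit. No paired analysis was possible because the strains have 1 library each.

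With a width limit of 500 bp the narrow peaks numbered 56 (untagged) and 93 (*SUMO-KallR*), their median height was 3.7 and 4.1, overlap with the other dense list was 58.9% in the untagged list, the non-coding RNA share was 60.2% in *SUMO-KallR* and the *SUMO-KallR* gaps had a median of 1556 bp. With a limit of 2000 bp there were 340 *SUMO-KallR* peaks, median heights of 6.6 and 7.1, overlaps of 78.5% and 94.1%, gaps of 2359.5 and 2458.5 bp, and in *SUMO-KallR* a non-coding RNA share of 39.7% and a GC content of 35.2%.

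With heights of at least 5 alone, 59 untagged, 2 WT and 99 *SUMO-KallR* peaks were left, the median heights of the dense lists were 7.1 and 7.3 and their overlaps 57.6% and 82.8%. With peaks less than 500 bp apart joined, 28 untagged and 39 *SUMO-KallR* peaks were left, the untagged median height was 4.1 and its GC content 36.5%, non-coding RNA shares were 67.9% and 76.9%, overlaps 78.6% and 74.4% and gaps 2528.5 and 2384 bp.

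Counting any overlap of the whole peak with a non-coding RNA gene, coding overlap allowed, gave 84.7% (untagged), 85.7% (WT) and 78.5% (*SUMO-KallR*). Of WT summits, 0% were in such a gene by the class order and 57.1% with coding overlap allowed. The share of wide peaks that overlap such a gene anywhere was not measured. Requiring at least 50% of the peak covered gave overlaps of 55.9% and 84.6%, against 93.2% and 97.7% of all arm peaks. A summit of the other list within 200 bp gave 32.2% and 24.6%, against 18.4% and 10.4% of all arm peaks. The 200 bases at the *SUMO-KallR* summits had a GC content of 35.5%, and gaps bounded by peaks of any width had a median of 1587 bp in *SUMO-KallR*. A lowest width of 300 bp and other extents of the arms moved no value outside its limits. The reads behind a peak are unknown, so the precision of heights is not known.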
